A study of Homo sapiens with 29 samples.

Results

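Glycolysis and the hypoxia response were followed through 32 listed genes, and all 32 were found as a row of both count tables among 63677 features. They comprise 3 transporters of glucose or lactate (SLC2A1, SLC2A3, SLC16A3), 15 glycolytic enzymes, 2 lactate dehydrogenase subunits (LDHA, LDHB), 4 regulators of flux (PFKFB3, PFKFB4, PDK1, PDK3), 3 genes of oxygen sensing (HIF1A, EGLN1, EGLN3) and 5 other hypoxia-induced genes (VEGFA, CA9, BNIP3, ADM, ANKRD37). The study made 29 RNA-seq libraries from the human prostate cancer lines C4-2 and 22Rv1, kept in hormone-proficient medium. C4-2 descends from the line LNCaP and grows without androgen, and 22Rv1 came from a xenograft that relapsed after castration. C4-2 had 8 groups of 3 libraries: Ctrl, NU7441, CC-115, CC-223, Enza, NU7441+Enza, CC-115+Enza and CC-223+Enza. 22Rv1 had 3 Control and 2 CC-115 libraries. Cells received 1 µM of each agent and were collected after 24 h. NU7441 inhibits the DNA repair kinase DNA-PK, CC-115 inhibits DNA-PK and TOR kinase, CC-223 inhibits TOR kinase, and Enza is enzalutamide, an antagonist of the androgen receptor. Nothing in the labels says that libraries of a group came from separate cultures, so p-values measure only the spread between these libraries, which may be technical.

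Glycolysis splits glucose into pyruvate, and lactate dehydrogenase turns pyruvate into lactate, which leaves the cell through monocarboxylate transporters. Hypoxia-inducible factor 1 (HIF-1), whose oxygen-regulated subunit is encoded by HIF1A, induces many of these genes when oxygen is low. The prolyl hydroxylases EGLN1 and EGLN3 mark that subunit for degradation when oxygen is present. TOR kinase is known to raise HIF-1 synthesis and the transcription of glycolytic genes, and EGLN3 and VEGFA are themselves induced by hypoxia.

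HIF-1 recognises the core letters ACGTG or GCGTG in promoters. The 250 bases before a RefSeq transcription start (GRCh38.p14) were searched on both strands for these letters. For each member the first entry of the promoter table was used, which need not be its main start. The share over all promoters kept every entry. 30 of the 32 genes had an entry in the promoter table; SLC2A3 and VEGFA had none. ACGTG was present in 13 of the 30 (43.3%), against 18.5% of all 35116 promoters in the table, and GCGTG in 11 (36.7%) against 32.2%. Either was present in 19 (63.3%), against 43.2%. The matched promoters had a median GC content of 70.4% and all promoters 58.0%, so the windows also differed in base composition. ACGTG inside the palindrome CACGTG, which other factors also recognise, is counted on each strand. Below are 5 windows, read 5′ to 3′ on the gene's strand with matches in capitals. LDHA and PGK1 are examples of enzymes that fell with CC-115 in both lines and do not stand for all of them. ALDOC is the enzyme that rose with NU7441 and fell with CC-115. SLC16A3 and EGLN3 are the 2 genes whose response separated the compounds or the lines most. The 5 windows lie at chr11:18394313-18394562 (LDHA, plus strand), chrX:78103998-78104247 (PGK1, plus), chr17:28576896-28577145 (ALDOC, minus), chr17:82228185-82228434 (SLC16A3, plus) and chr14:33951075-33951324 (EGLN3, minus).
LDHA: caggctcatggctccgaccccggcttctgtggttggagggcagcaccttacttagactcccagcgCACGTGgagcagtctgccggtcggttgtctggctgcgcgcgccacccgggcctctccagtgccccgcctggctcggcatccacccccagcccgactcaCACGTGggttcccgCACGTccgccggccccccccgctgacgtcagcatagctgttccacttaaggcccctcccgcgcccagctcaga
PGK1: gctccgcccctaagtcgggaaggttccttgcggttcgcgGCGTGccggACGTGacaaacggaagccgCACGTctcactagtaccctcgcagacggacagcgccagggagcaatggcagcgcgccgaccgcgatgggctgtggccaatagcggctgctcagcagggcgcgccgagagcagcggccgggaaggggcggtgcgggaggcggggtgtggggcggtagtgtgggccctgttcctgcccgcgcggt
ALDOC: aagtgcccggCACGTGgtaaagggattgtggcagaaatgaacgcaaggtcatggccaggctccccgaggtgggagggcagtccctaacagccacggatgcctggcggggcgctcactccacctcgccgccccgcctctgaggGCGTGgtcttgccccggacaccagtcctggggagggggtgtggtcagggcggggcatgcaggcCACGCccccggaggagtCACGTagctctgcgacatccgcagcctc
SLC16A3: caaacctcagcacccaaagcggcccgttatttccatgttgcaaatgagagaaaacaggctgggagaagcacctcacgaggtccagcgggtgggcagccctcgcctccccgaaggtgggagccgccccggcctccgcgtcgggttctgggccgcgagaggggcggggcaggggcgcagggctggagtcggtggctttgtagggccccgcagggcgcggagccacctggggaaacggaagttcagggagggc
EGLN3: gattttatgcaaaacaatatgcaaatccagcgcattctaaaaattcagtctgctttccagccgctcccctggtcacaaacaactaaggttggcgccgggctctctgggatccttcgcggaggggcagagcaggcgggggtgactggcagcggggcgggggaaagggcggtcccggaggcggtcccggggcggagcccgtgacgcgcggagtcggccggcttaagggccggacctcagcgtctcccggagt

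LDHA held 5 matches of ACGTG, PGK1 held 2 of ACGTG and 1 of GCGTG, and ALDOC held 3 and 2. Neither set of letters was in the SLC16A3 and EGLN3 windows, which says only that they are not in these 250 bases.

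Library totals were 29580404 to 44864694 counts in C4-2 and 31606952 to 44912917 in 22Rv1. The 9 luminal prostate markers were present in every group. Their summed level was 5390 to 5670 CPM (counts scaled to a common library total) in C4-2 Ctrl and 12300 to 12700 with CC-115. It was 2230 to 2350 in 22Rv1 Control and 2330 to 2630 with CC-115. Basal markers summed to at most 0.52 CPM and immune markers to at most 1.5. Of 4 endothelial markers 3 were found, with at most 4.58 CPM, nearly all from VWF. Fibroblast markers reached 9.61 CPM in C4-2 Enza and 12.8 in 22Rv1 CC-115, with COL1A1 the highest. In C4-2 Enza replicate 1 and in CC-115+Enza replicate 1 the counts differed from their group by a chi-square per degree of freedom of 111.65 to 188.54, against at most 46.87 in any other pair. Results that rest on these 2 libraries are given with and without them, or the dependence is named.

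In untreated cells the members spanned more than 4 orders of magnitude. Levels between genes are compared in CPM per kilobase of deposited gene length. GAPDH, which oxidises glyceraldehyde 3-phosphate, was highest in C4-2 Ctrl at 763 ± 43.4 (SD, n = 3) CPM per kilobase. ENO1, an enolase, followed at 544 ± 37.7, the triose isomerase TPI1 at 398 ± 29.6 and LDHB at 303 ± 29.3. LDHA at 140 ± 1.23, the pyruvate kinase PKM at 129 ± 3.4, PGK1 at 126 ± 10.5 and ALDOA at 118 ± 4.06 formed the next tier. In that tier each gene lay within about the summed SDs of a neighbour, except LDHA over PKM. In 22Rv1 Control the order began with GAPDH at 1327 ± 27.2, TPI1 at 801 ± 14.9, ENO1 at 423 ± 6.53 and ALDOA at 196 ± 16.8, with LDHB at 190 ± 4.08 not separated from ALDOA.

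**Figure D1:**
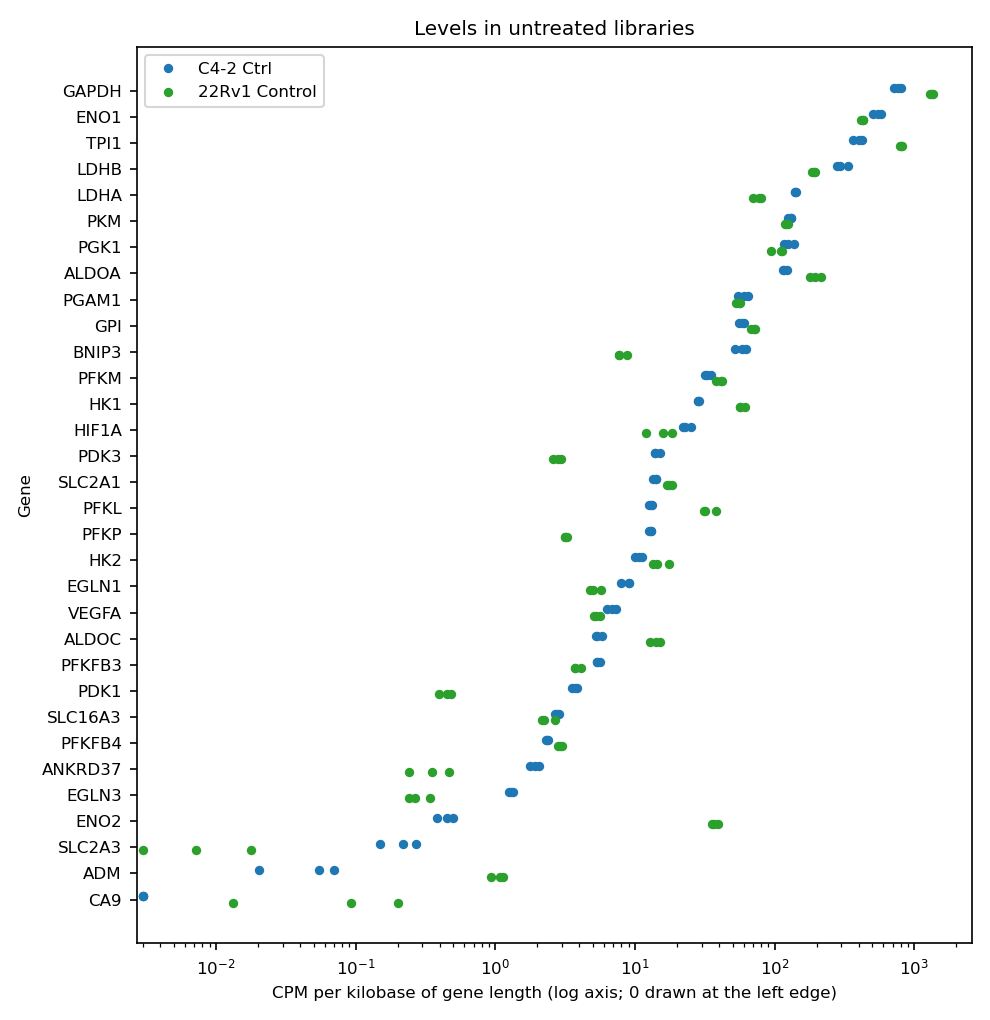
Level of each gene in CPM per kilobase of gene length (horizontal log axis) in every untreated library, 3 of C4-2 Ctrl (blue) and 3 of 22Rv1 Control (green), ordered by the C4-2 mean; each line was scaled within its own table. GAPDH leads in both lines, and ENO2, SLC2A3, ADM and PDK1 lie far apart between the lines.

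The 9 largest ratios between the lines among genes detected in both are described here without a test. For these ratios each table was scaled on its own. ENO2, the neuronal enolase, had 158 CPM in 22Rv1 Control and 1.90 in C4-2 Ctrl, a ratio of 83.1. SLC2A3, a glucose transporter, was 25.3-fold higher in C4-2 (1.31 against 0.0516 CPM), on only 5, 2 and 0 reads in the 22Rv1 Control libraries. Features named as SLC2A3 pseudogenes held 242% of its counts in C4-2 and 714% in 22Rv1, so its level is uncertain. ADM, which encodes the vasodilator peptide adrenomedullin, was 21.7-fold higher in 22Rv1 (2.85 against 0.131). The other 6 were all higher in C4-2. PDK1, a kinase that switches off pyruvate dehydrogenase, had 6.66 CPM in 22Rv1 against 56.1 in C4-2, and the mitophagy receptor BNIP3 had 16.9 against 122. ANKRD37 had 0.907 against 4.94, PDK3 7.48 against 38.7, EGLN3 2.09 against 9.53 and the platelet phosphofructokinase PFKP 15.4 against 62.1. CA9, a carbonic anhydrase often used as a hypoxia marker, had 0 to 2 counts in each C4-2 library and 1 to 11 in each 22Rv1 library. It passed the filter on low counts in neither line, and 38.5% of its exon bases are shared with ARHGEF39 on the opposite strand. In C4-2, 30 members were tested (not CA9 and ADM). In 22Rv1, 30 were tested (not CA9 and SLC2A3).

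CC-115 lowered most of the listed glycolytic genes of C4-2, though not every isoform. Of the 30 members tested, 21 fell and 2 rose at an adjusted p under 0.05. Of all 22860 genes tested 53.6% were called: 26% were lower and 27.6% higher. The median log2 fold change was -0.90 for the members and 0.03 for all genes. The members' share of all counts was 1.1 to 1.142% in Ctrl and 0.528 to 0.531% with CC-115. CPM are shares of a library, so less RNA of all kinds per cell would not be seen. The noncoding RNA 7SK took 3.43 to 3.51% of counts in Ctrl and 4.95 to 5.31% with CC-115. With small and mitochondrial RNA removed before scaling, 22 members were called. The 53.6% is the share of all genes with these RNAs kept, and none is given here without them. The luminal markers given above also stood higher with CC-115, and their part in the result was not tested.

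**Figure D2:**
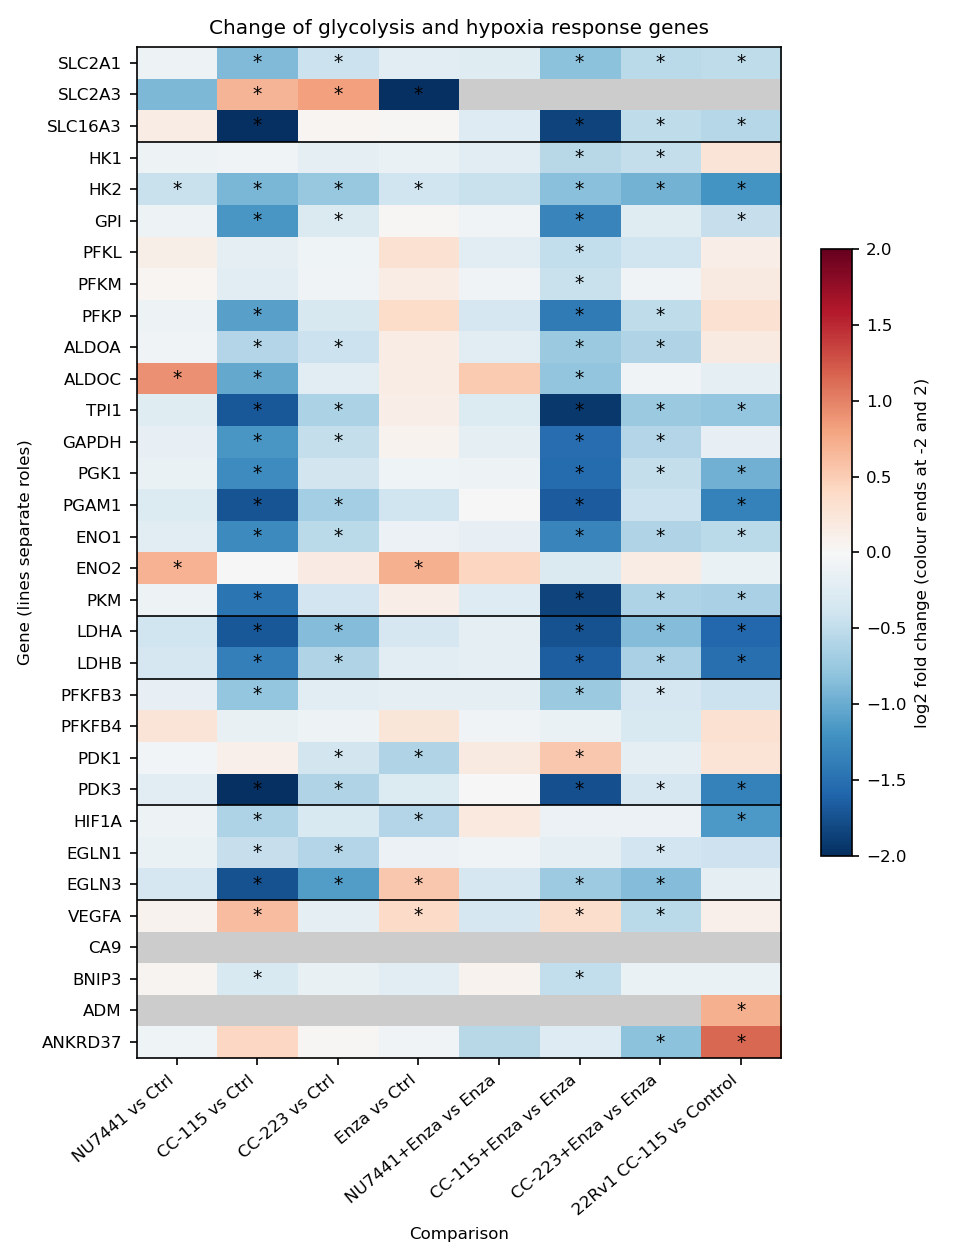
log2 fold change of the 32 genes (rows, grouped by role) in 8 comparisons (columns); an asterisk marks an adjusted p under 0.05, and grey marks genes not tested or, for SLC2A3 in combinations with Enza, at or under 3 counts in both groups. The columns of CC-115 and CC-115+Enza are blue for most enzymes, the NU7441 columns are pale, and colour ends at -2 and 2.

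Among the transporters, SLC16A3, which exports lactate, had the largest fall of any member. It had 24.2, 25.9 and 24.8 CPM in Ctrl and 4.38, 5.83 and 5.94 with CC-115. Every treated library was far below every control, 4.63-fold on average (log2 -2.21 ± 0.16 SE, adjusted p = 8.6e-12). SLC16A3 shares 5.36% of its exon bases with CSNK1D on the opposite strand, which had 1622 to 4681 counts in C4-2 libraries. Its level is therefore uncertain if strand was not used in counting. The glucose transporter SLC2A1 fell from 56.5, 59.3 and 59.6 CPM to 30.0, 31.9 and 33.5 (log2 -0.88 ± 0.09, adjusted p = 3.24e-09), with no overlap. SLC2A3, a high-affinity glucose transporter, went the other way at a low level. It had 56, 29 and 48 counts in Ctrl and 71, 75 and 83 with CC-115 (log2 0.68 ± 0.24, adjusted p = 0.0178). The groups did not overlap, but the call was lost without Ctrl replicate 2 (0.48, adjusted p = 0.135) or replicate 3 (0.64, 0.0627). Features named as SLC2A3 pseudogenes held 242% of its counts in C4-2, so reads could be split between copies and its level is uncertain.

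Of the 15 glycolytic enzymes 11 fell and none rose. PGAM1, a phosphoglycerate mutase, had 167, 156 and 140 CPM in Ctrl and 45.9, 46.1 and 47.7 with CC-115 (log2 -1.73 ± 0.17, adjusted p = 3.82e-09). TPI1 had 1146, 1089 and 988 CPM against 339, 324 and 333 (log2 -1.69 ± 0.16, adjusted p = 2.11e-09). In both, every treated library was far below the lowest control. PKM had 1131, 1113 and 1074 CPM against 391, 403 and 411 (log2 -1.46). ENO1 had 2301, 2160 and 2002 CPM against 913, 881 and 889 (log2 -1.27), and the phosphoglycerate kinase PGK1 had 784, 710 and 664 against 311, 290 and 306 (log2 -1.25). These groups were likewise apart. GAPDH, often used as a reference gene, had 2398, 2269 and 2140 CPM in Ctrl and 1021, 976 and 1029 with CC-115. It fell 2.25-fold (log2 -1.17 ± 0.17, adjusted p = 1.67e-06). The glucose-6-phosphate isomerase GPI had 503, 532 and 548 CPM against 230, 236 and 239 (log2 -1.17). PFKP (-1.08), ALDOC (-1.03), HK2 (-0.92) and ALDOA (-0.59) also fell. The 4 enzymes that did not pass were HK1 at -0.07 (95% interval -0.35 to 0.20), PFKL at -0.20 (-0.54 to 0.14), PFKM at -0.23 (-0.53 to 0.08) and ENO2 at -0.01 (-0.38 to 0.36). All 4 have a sister isoform in the list that fell. In Ctrl, HK1 (28.4 CPM per kilobase) stood above HK2 (10.7) and PFKM (33.3) above PFKP (12.9), while PFKL (12.9) was level with PFKP and ENO2 (0.44) far below ENO1 (544). Counts of PGAM1 are uncertain to the extent that its 13 pseudogene-named features, with 3.87% of its counts, share reads with it.

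LDHA, the subunit that favours lactate formation, had 862, 864 and 876 CPM in Ctrl and 279, 264 and 264 with CC-115. The treated libraries formed a tight group 3.22-fold lower (log2 -1.69 ± 0.15, adjusted p = 3.71e-10). LDHB had 1000, 877 and 831 CPM against 366, 340 and 349 (log2 -1.36 ± 0.18, adjusted p = 4.5e-07). Both subunits therefore fell.

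The regulators of flux divided. PDK3, a kinase that inhibits pyruvate dehydrogenase, had 40.9, 37.8 and 37.5 CPM in Ctrl and 9.46, 8.43 and 9.07 with CC-115, a 4.31-fold fall (log2 -2.11 ± 0.14, adjusted p = 1.27e-12). PDK1 had 57.8, 56.4 and 53.9 CPM against 61.7, 58.1 and 61.3 (log2 0.11, 95% interval -0.14 to 0.35, adjusted p = 0.468). The 2 kinases of 1 enzyme thus had unlike values, with PDK3 libraries apart and PDK1 close to its controls. PFKFB3, whose product makes the activator of phosphofructokinase, fell (-0.77), and PFKFB4, its relative, was at -0.15 (-0.39 to 0.10).

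All 3 oxygen-sensing genes fell. HIF1A had 129, 117 and 114 CPM in Ctrl and 81.0, 75.0 and 77.4 with CC-115 (log2 -0.63 ± 0.14, adjusted p = 0.000549). EGLN1 had 65.7, 65.5 and 58.1 CPM against 45.5, 47.8 and 44.8 (log2 -0.45). EGLN3 had 9.51, 9.81 and 9.27 CPM against 3.26, 2.77 and 2.55 (log2 -1.74 ± 0.12, adjusted p = 3.27e-12). No treated library reached a control in any of the 3. The EGLN3 model (hg19 chr14:34393437-34931980, minus strand) encloses SPTSSA on the same strand, which had 566 to 1725 counts in C4-2 libraries. Their exons do not overlap in the annotation, so reads counted by exon would not be shared.

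Among the other hypoxia-induced genes VEGFA, which encodes the angiogenic growth factor, rose. It had 91.6, 98.5 and 105 CPM in Ctrl and 147, 158 and 147 with CC-115, a 1.53-fold rise with no overlap (log2 0.61 ± 0.10, adjusted p = 1.65e-05). BNIP3 fell by 0.31 on the log2 scale (adjusted p = 0.0457), and 42 features named as its pseudogenes held 5.08% of its counts. That call was lost without any single one of 5 of the 6 libraries (all but Ctrl replicate 3), at -0.225 to -0.305. ANKRD37, an ankyrin repeat gene, had 4.98, 4.54 and 5.29 CPM in Ctrl and 6.55, 6.74 and 6.55 with CC-115 (log2 0.42 ± 0.20, adjusted p = 0.079). It shares 35.23% of its exon bases with UFSP2 on the opposite strand, so its level is uncertain if strand was not used in counting. ADM had 2 to 6 counts in Ctrl and 2 to 4 with CC-115, too few to compare.

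**Figure D3:**
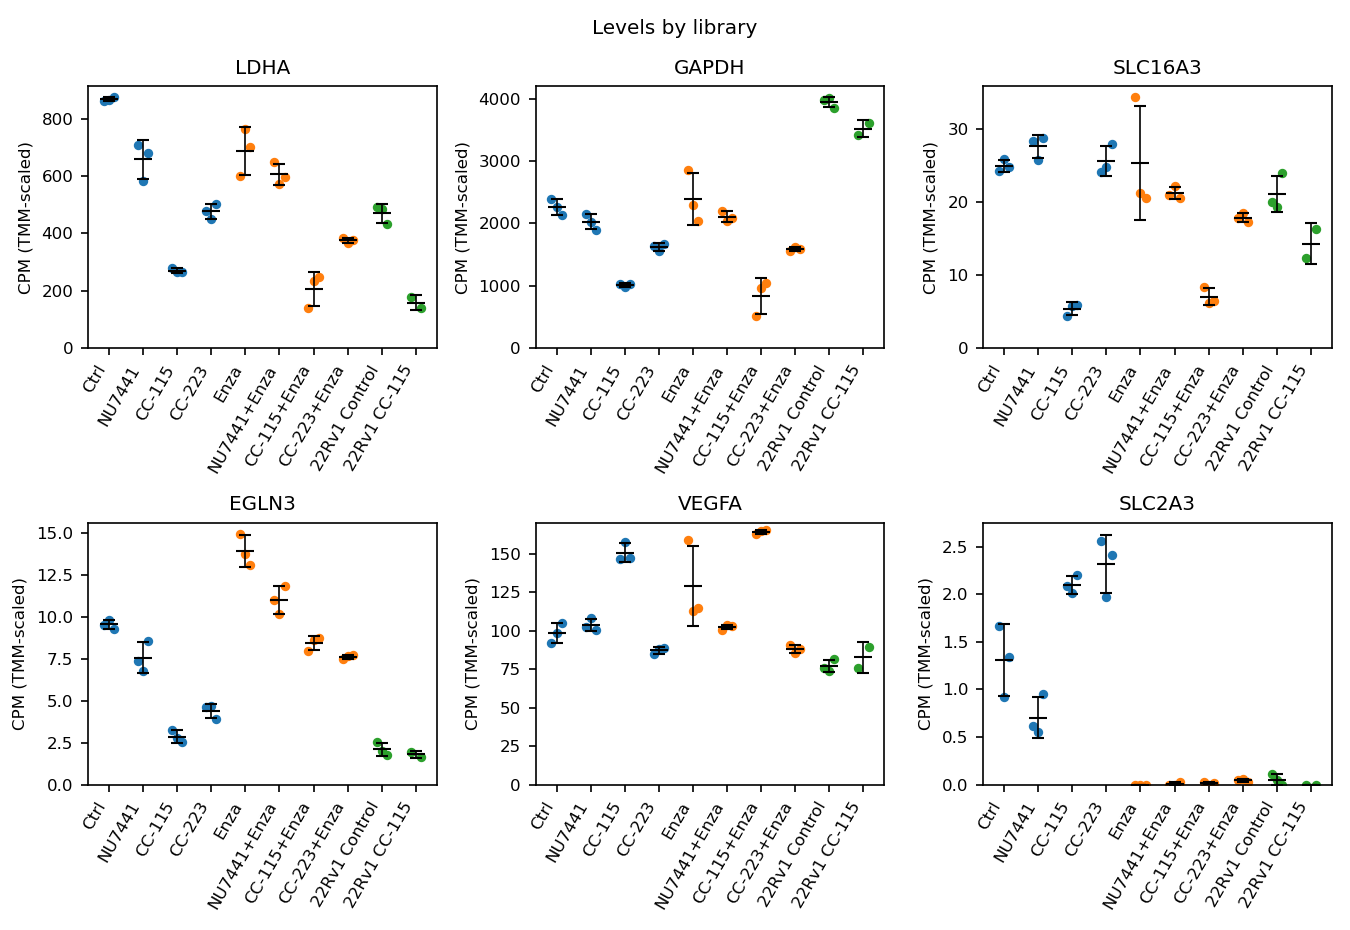
TMM-scaled CPM of 6 genes (panels) in every library (points; blue C4-2, orange C4-2 with Enza, green 22Rv1), with the mean and SD of each group of 3 libraries (2 for 22Rv1 CC-115) as a bar. In C4-2, LDHA, SLC16A3 and EGLN3 drop with CC-115 and VEGFA stands higher. SLC2A3 lies near 0 in all 4 groups given Enza and also in both 22Rv1 groups, which had none.

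CC-223, the TOR kinase inhibitor, also lowered members of the pathway. Of 30 tested, 14 fell and 1 rose, against 23.9% of all genes called (10.9% lower, 12.9% higher). The median was -0.34 for members and 0.07 for all genes. The share of 7SK was 4.87 to 4.98% of counts with CC-223 and 3.43 to 3.51% in Ctrl, and the summed luminal markers were 8930 to 9090 CPM against 5390 to 5670. The part of either in the results was not tested. With small and mitochondrial RNA removed 16 members were called. The 23.9% is the share of all genes with these RNAs kept, and none is given here without them. EGLN3 had 4.60, 4.68 and 3.91 CPM, against 9.27 or more in each control (log2 -1.12 ± 0.11, adjusted p = 1.74e-07). LDHA had 477, 451 and 501 CPM (log2 -0.87 ± 0.14, adjusted p = 9.39e-05), and HK2, the inducible hexokinase, had 61.1, 64.7 and 68.3 CPM in Ctrl and 36.0, 39.3 and 39.5 with CC-223 (log2 -0.76 ± 0.12, adjusted p = 3.08e-05). In all 3 genes every treated library was below every control. LDHB (-0.61), PDK3 (-0.60), PDK1 (-0.36), EGLN1 (-0.59), SLC2A1 (-0.44) and 6 further enzymes (PGAM1, TPI1, ENO1, GAPDH, ALDOA and GPI, -0.68 to -0.30) fell too. SLC2A3 rose (0.82 ± 0.24, adjusted p = 0.0138) with 74, 59 and 79 counts. GAPDH had 1643, 1553 and 1673 CPM with CC-223 (log2 -0.48, adjusted p = 0.0359). HIF1A had 98.4, 94.6 and 96.9 CPM (log2 -0.31, 95% interval -0.60 to -0.02, adjusted p = 0.112). Some calls rested on single libraries. GAPDH was lost without Ctrl replicate 1 or any CC-223 library (-0.49 to -0.55), LDHB without Ctrl replicate 1 (-0.57), GPI (-0.31) and ALDOA (-0.45) without CC-223 replicate 1, PDK1 without CC-223 replicate 3 (-0.37), and SLC2A3 without Ctrl replicate 2 or 3 or CC-223 replicate 1 or 3 (0.56 to 0.77).

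At the same dose and time, CC-115 and CC-223 gave different levels of 18 members: 16 were lower with CC-115 and 2 higher, against 43.1% of all genes called (22.7% lower). SLC16A3 separated them most. It had 24.2, 24.9 and 28.0 CPM with CC-223, level with Ctrl (log2 0.04, 95% interval -0.26 to 0.34), so its level with CC-115 was 4.77-fold lower (log2 -2.25 ± 0.16, adjusted p = 1.55e-11). PDK3 (-1.50), PKM (-1.08), TPI1 (-1.06) and PGAM1 (-1.05) were the next largest. VEGFA had 84.8, 88.1 and 88.5 CPM with CC-223 and was 1.73-fold higher with CC-115 (log2 0.79 ± 0.10, adjusted p = 7.96e-07). PDK1 had 44.4, 45.1 and 41.2 CPM with CC-223 and was higher with CC-115 (log2 0.47 ± 0.12, adjusted p = 0.00208). In these 3 genes the libraries of the 2 compounds did not overlap. 12 members did not pass. Among them HK2 differed by -0.16 (-0.40 to 0.08), ALDOA by -0.17 (-0.45 to 0.12) and EGLN1 by 0.14 (-0.08 to 0.35), while HIF1A differed by -0.31 (-0.61 to -0.02, adjusted p = 0.0776). 3 pairs of compounds were compared in all, with p-values adjusted over all genes within each pair.

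NU7441, the DNA-PK inhibitor, moved few members. Of 30 tested, 2 rose and 1 fell, against 3.39% of all genes called (2.28% higher, 1.11% lower). ALDOC, the brain-type aldolase, had 15.7, 16.9 and 15.5 CPM in Ctrl and 27.8, 39.7 and 23.0 with NU7441 (log2 0.91 ± 0.15, adjusted p = 0.00107). All treated libraries were higher, with replicate 2 well above the others. ENO2 had 1.64, 1.92 and 2.14 CPM against 2.94, 3.45 and 2.84 (log2 0.69 ± 0.17, adjusted p = 0.026). HK2 had 49.8, 43.6 and 49.6 CPM (log2 -0.44 ± 0.11, adjusted p = 0.0306), below every control. HIF1A (-0.10; 109.1, 114.9 and 111.7 CPM), GAPDH (-0.16; 2145, 2028 and 1901 CPM) and EGLN3 (-0.34, adjusted p = 0.0882) did not pass. EGLN3 had 7.35, 6.76 and 8.55 CPM, all below the controls, as was LDHA with 709, 582 and 681 CPM (log2 -0.40 ± 0.14, adjusted p = 0.13). 1 member was called without Ctrl replicate 1, Ctrl replicate 3 or NU7441 replicate 2. The 3.39% is the share of all genes with every library kept, and none is given here for these smaller sets. HK2 was lost without any Ctrl library or NU7441 replicate 2 or 3 (-0.51 to -0.40), and ENO2 without any Ctrl library or NU7441 replicate 1 or 2 (0.57 to 0.76). Without the 2 libraries that stand apart, which belong to other groups but share the estimate of spread, 13 members were called (3 higher, 10 lower) among 21.7% of all genes. LDHA then had an adjusted p of 1.18e-05 at the same log2 -0.40.

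Set against CC-115, NU7441 left 26 members at another level: 23 were lower with CC-115 and 3 higher, among 49% of all genes called (24.5% in each direction). Of these calls EGLN1 (-0.32), PFKFB4 (-0.41), BNIP3 (-0.36) and ANKRD37 (0.50) were lost without NU7441 replicate 2, at -0.26, -0.33, -0.21 and 0.49. They were also lost without CC-115 replicate 3, at -0.25, -0.31, -0.32 and 0.56. ALDOC was 1.94 lower on the log2 scale with CC-115 and SLC16A3 2.36 lower. Against CC-223, NU7441 gave higher levels of 5 members and a lower level of 1, among 7.31% of all genes (3.2% higher, 4.12% lower). ALDOC (1.12), EGLN3 (0.78), LDHA (0.47), EGLN1 (0.45) and SLC2A1 (0.33) were higher, and SLC2A3 was lower (-1.72, 23, 19 and 31 counts with NU7441). Without the 2 libraries that stand apart 25 members were called, 24 of them higher. The 7.31% is the share of all genes with every library kept. No share is given here for the smaller set, so the 25 cannot be judged against it. The LDHA call was lost without NU7441 replicate 1 or 3 or any CC-223 library (0.43 to 0.52), and the SLC2A1 call without NU7441 replicate 3 or CC-223 replicate 1 or 2 (0.32 to 0.35).

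Enza alone called 3 members higher and 4 lower, among 16.1% of all genes (9.35% higher, 6.75% lower). Mitochondrial RNA took 0.96, 3.52 and 6.12% of counts in the 3 Enza libraries and 0.92 to 2.34% in Ctrl, while the members took 1.278, 1.084 and 0.971% with Enza. The summed luminal markers were 3090 to 3530 CPM with Enza and 5390 to 5670 in Ctrl. The part of the luminal markers in the results was not tested. With small and mitochondrial RNA removed 7 members were called, 3 higher and 4 lower. The 16.1% is the share of all genes with these RNAs kept, and none is given here without them. The clearest member called was SLC2A3, with 56, 29 and 48 counts in Ctrl and 0, 0 and 0 with Enza. Against a floor of 3 counts over the group, it was at least 40.7-fold lower. It had 0 to 2 counts in each library of the 3 combinations. All 12 C4-2 libraries given Enza were thus below the lowest C4-2 library without it. Features named as SLC2A3 pseudogenes held 242% of its counts in C4-2, so its level is uncertain here too. EGLN3 went up, from 9.51, 9.81 and 9.27 CPM to 14.9, 13.7 and 13.1 (log2 0.55 ± 0.11, adjusted p = 0.000722), with no overlap. PDK1 had 27.6, 39.5 and 43.6 CPM with Enza (log2 -0.60 ± 0.12, adjusted p = 0.000805), and HIF1A had 62.9, 89.6 and 87.9 (log2 -0.58 ± 0.14, adjusted p = 0.00579). Both were below every control and lowest in replicate 1, which stands apart. ENO2 had 3.73, 2.94 and 2.70 CPM (log2 0.71), VEGFA 159, 113 and 114.6 (log2 0.39) and HK2 62.3, 43.0 and 42.7 (log2 -0.39). VEGFA was highest and HK2 overlapped Ctrl in that same replicate. GAPDH had 2858, 2290 and 2038 CPM and overlapped Ctrl (log2 0.08, adjusted p = 0.785).

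Without the 2 libraries that stand apart, 18 members were called, 3 higher and 15 lower, among 21.4% of all genes. EGLN3 was then at 0.49, PDK1 at -0.43, HIF1A at -0.44, HK2 at -0.60, ENO2 at 0.57 and VEGFA at 0.21, all still called. SLC16A3 turned from 0.02 to -0.26 (adjusted p = 0.0267), and LDHA fell by 0.25 and LDHB by 0.33 on the log2 scale. ENO2 was lost without Ctrl replicate 1 or Enza replicate 1 (0.59 and 0.53). VEGFA was lost without Ctrl replicate 1 or 2 or Enza replicate 1 (0.32, 0.35 and 0.17), and HK2 without Enza replicate 2 or 3 (-0.32 and -0.33).

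Added to Enza, CC-115 lowered 22 members and raised 2, among 58.7% of all genes (30.2% lower). Of the enzymes 14 of 15 fell, ENO2 being the exception (-0.28, adjusted p = 0.151). LDHA had 598, 764 and 700 CPM with Enza and 138, 234 and 247 with CC-115+Enza (log2 -1.74 ± 0.15, adjusted p = 2.23e-10). GAPDH had 507, 966 and 1039 CPM with the combination (log2 -1.52 ± 0.17). No combination library reached an Enza library in either gene, and replicate 1 was the lowest. SLC16A3 had 34.4, 21.2 and 20.6 CPM with Enza and 8.37, 6.23 and 6.46 with the combination (log2 -1.86). It was highest in replicate 1 of both groups, the 2 libraries that stand apart. VEGFA had 163, 165 and 165 CPM (log2 0.35, adjusted p = 0.00512), but Enza replicate 1 at 159 lay close to them. PDK1 rose by 0.54 from its low level with Enza. That level was lowest in Enza replicate 1, so the size of the rise may rest on a library that stands apart. Without the 2 libraries that stand apart, 22 members were called, while the 58.7% is the share of all genes with every library kept. LDHA was then at -1.60, GAPDH at -1.11 and VEGFA at 0.54. PFKL went from -0.49 to 0.03 (adjusted p = 0.771) and PFKM from -0.44 to -0.02 (adjusted p = 0.843). Leaving out Enza replicate 1 or CC-115+Enza replicate 1 alone also removed both calls (PFKL -0.078 and -0.335, PFKM -0.157 and -0.255), and leaving out CC-115+Enza replicate 3 removed that of PFKL (-0.46).

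CC-223 added to Enza lowered 19 members and raised none, among 28% of all genes. LDHA had 383, 368 and 375 CPM (log2 -0.87 ± 0.14, adjusted p = 7.66e-05), and HK2 had 26.4, 24.1 and 25.8 (log2 -0.95 ± 0.12, adjusted p = 1.81e-06), both below every Enza library. VEGFA fell (-0.55 ± 0.10, adjusted p = 0.000333), with 90.7, 85.4 and 88.3 CPM. Without the 2 libraries that stand apart, 22 members were called (21 lower, 1 higher) and VEGFA was at -0.37. The 28% is the share of all genes with every library kept, and none is given here for the smaller set. PFKM went from -0.07 to 0.17 (adjusted p = 0.0295), and PFKFB3 (-0.18) and ANKRD37 (-0.34) were no longer called. Without Enza replicate 1 alone, HK1, PFKP, GAPDH, PGK1, PKM, SLC16A3, PFKFB3 and ANKRD37 were not called (-0.44 to -0.16). PDK3 was lost without any single library but Enza replicate 1, at -0.36 to -0.18. PFKFB3 was lost without any CC-223+Enza library (-0.36 to -0.33), PGK1 without replicate 1 or 2 of that group (-0.48 and -0.49) and HK1 without its replicate 2 (-0.44).

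NU7441 added to Enza called none of the 30 members by edgeR, among 0.381% of all genes (0.223% higher, 0.157% lower). 8 had an unadjusted p under 0.05, and DESeq2 called 3. Leaving out Enza replicate 2 gave 2 calls and leaving out Enza replicate 3 gave 6. The 0.381% is the edgeR share of all genes with every library kept, and no share is given here for these alternatives. ALDOC had 25.2, 25.4 and 26.0 CPM with the combination and 20.4, 17.02 and 15.8 with Enza (log2 0.52 ± 0.15, adjusted p = 0.121). The libraries did not overlap, and the value was in the direction seen with NU7441 alone.

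Interaction terms asked whether an inhibitor acted differently with Enza than without it. For NU7441 no member was called (0% of all genes; 1 at an unadjusted p under 0.05; 0 by DESeq2). For CC-223 none was called (0.376% of all genes; 3 at an unadjusted p under 0.05; 0 by DESeq2). For CC-115 a single member was called, EGLN3, among 3.27% of all genes (0.993% higher, 2.27% lower). EGLN3 had 14.9, 13.7 and 13.1 CPM with Enza and 7.98, 8.61 and 8.73 with CC-115+Enza, a fall of 0.72 on the log2 scale against the fall of 1.74 without Enza. The difference was 1.02 ± 0.16 (adjusted p = 0.000236), and without the 2 libraries that stand apart it was 1.11 (adjusted p = 1.35e-06). The corresponding term was 0.25 for CC-223 (95% interval -0.07 to 0.57) and -0.01 for NU7441 (-0.32 to 0.31). For LDHA the CC-115 term was -0.05 (-0.47 to 0.37) and for GAPDH -0.35 (-0.83 to 0.14). 5 members were called for CC-115 without the 2 libraries: EGLN3, HIF1A (0.57), SLC16A3 (0.49), EGLN1 (0.38) and HK2 (0.33). The 3.27% is the share of all genes with every library kept, and none is given here for the smaller sets. The number was 2 without Enza replicate 1 and 3 without Enza replicate 3 or CC-115+Enza replicate 1.

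In 22Rv1, CC-115 lowered 13 of 30 members tested and raised 2, among 40.9% of all 19392 genes (20.7% lower, 20.2% higher). The median was -0.31 for members and -0.02 for all genes, and the members' share of counts went from 1.456 to 1.498% down to 0.989 to 1.025%. The share of 7SK was 9.3 to 10.22% in Control and 13.9 to 15.29% with CC-115, and the summed fibroblast markers were 2.85 to 4.23 CPM against 7.64 to 12.8. The part of either in the results was not tested. With small and mitochondrial RNA removed 15 members were called. The 40.9% is the share of all genes with these RNAs kept, and none is given here without them. LDHA had 493, 483 and 433 CPM in Control and 177 and 139 with CC-115 (log2 -1.57 ± 0.14, adjusted p = 0.000286). LDHB had 577, 554 and 573 CPM against 223 and 178 (log2 -1.50 ± 0.13, adjusted p = 0.000257). Both treated libraries were far below every control in both genes. PDK3 had 7.56, 7.95 and 6.93 CPM against 3.09 and 2.78 (log2 -1.35). PGAM1 had 142, 137 and 146 CPM against 55.9 and 55.6 (log2 -1.34), and HK2 had 81.1, 87.3 and 106 against 37.8 and 41.9 (log2 -1.20). The groups were apart in all 3.

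PGK1 (641, 636 and 540 against 319 and 306 CPM; log2 -0.96) and TPI1 (2208, 2130 and 2149 against 1188 and 1346 CPM; log2 -0.77) fell with no overlap. PKM (-0.64), ENO1 (-0.54), GPI (-0.46), SLC2A1 (-0.50) and SLC16A3 (-0.56) also fell. HIF1A had 82.1, 94.3 and 62.0 CPM in Control and 47.3 and 23.9 with CC-115 (log2 -1.16 ± 0.29, adjusted p = 0.0161). The 2 treated libraries were far apart from each other, and without replicate 2 the value was -0.75 (adjusted p = 0.0509). ANKRD37 rose from 0.906, 0.620 and 1.20 CPM to 1.78 and 2.22 (log2 1.15 ± 0.30, adjusted p = 0.018), and ADM rose from 3.09, 2.55 and 2.91 to 4.30 and 5.03 (log2 0.71 ± 0.19, adjusted p = 0.0206). Both are low but did not overlap. Their calls were lost without Control replicate 1 or 2 or CC-115 replicate 2 (ANKRD37 0.92 to 1.16, ADM 0.59 to 0.77). SLC2A1 was lost without Control replicate 1 or 2 or CC-115 replicate 1 (-0.53 to -0.33), and SLC16A3 without any Control library or CC-115 replicate 1 (-0.64 to -0.37). GAPDH had 3973, 4013 and 3857 CPM against 3421 and 3613 (log2 -0.17 ± 0.08, adjusted p = 0.139). EGLN3 had 2.52, 1.97 and 1.78 CPM against 1.96 and 1.67 and overlapped Control (log2 -0.20, adjusted p = 0.52).

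The CC-115 effect itself differed between the lines for 19 of 31 members tested, among 27.5% of all 22922 genes (15.2% higher, 12.3% lower). 18 differences were positive, meaning a higher log2 fold change in 22Rv1, and 1 was negative. PFKP and ALDOA, which fell in C4-2, were at 0.30 and 0.18 in 22Rv1, neither called there. SLC16A3 differed by 1.69 ± 0.20 (adjusted p = 4.8e-05), EGLN3 by 1.59 ± 0.24 (adjusted p = 0.00031) and PFKP by 1.43 ± 0.13 (adjusted p = 6.38e-06). GAPDH differed by 1.05 ± 0.09 (adjusted p = 3.72e-06), TPI1 by 0.97 and ALDOC by 0.90. Of the 15 enzymes 11 differed in this direction. VEGFA, which rose in C4-2, was at 0.10 in 22Rv1 and differed by -0.46 ± 0.12 (adjusted p = 0.0138). The 2 lactate dehydrogenase subunits fell in both lines with no difference called: 0.17 for LDHA (95% interval -0.13 to 0.47) and -0.09 for LDHB (-0.40 to 0.23). HK2 differed by -0.23 (-0.55 to 0.08) and HIF1A by -0.47 (-1.14 to 0.20). The smaller differences were less settled. Without 22Rv1 CC-115 replicate 2 HK1 (0.24), PFKM (0.34), SLC2A1 (0.19), PFKFB3 (0.28), PFKFB4 (0.26) and ANKRD37 (0.59) were not called. Without Control replicate 2 HK1 (0.30), PGAM1 (0.34), SLC2A1 (0.35), PFKFB3 (0.31), PFKFB4 (0.41) and ANKRD37 (0.50) were not. Leaving out single C4-2 libraries or Control replicate 1 removed calls only among SLC2A1, PFKFB3, PFKFB4 and ANKRD37.

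**Figure D4:**
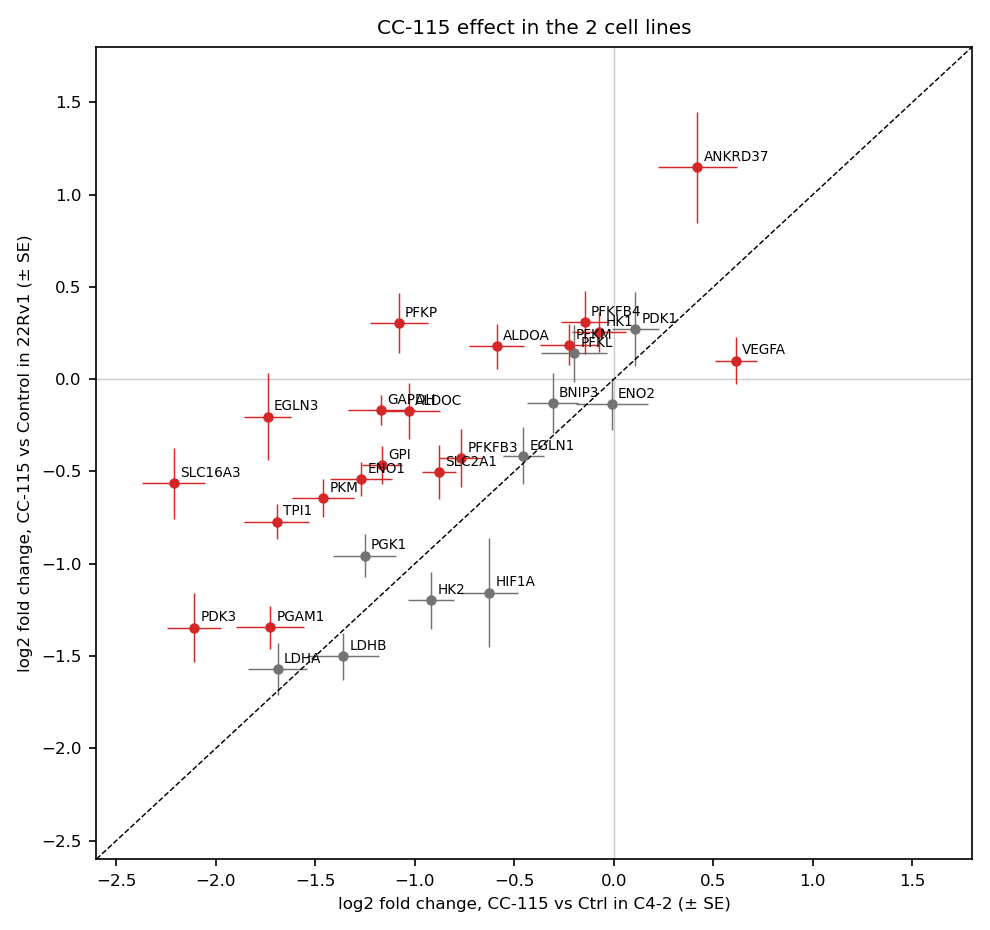
log2 fold change with CC-115 in C4-2 (horizontal) and in 22Rv1 (vertical) for the genes tested in both, with SE bars; red marks genes whose effect differed between the lines at an adjusted p under 0.05, and the dashed line marks equal effects. LDHA, LDHB and HK2 lie near the line, and SLC16A3, EGLN3, PFKP and GAPDH lie well above it.

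Genes beside the members in the same pathways were described from 6 textbook lists. Genes with an average log2 CPM under 0 are counted but not named, and the order of change given is among the others. Their counts are to be read against all genes tested: 53.6% were called with CC-115 in C4-2 (27.6% higher, 26% lower), 23.9% with CC-223 (12.9% higher, 10.9% lower) and 40.9% with CC-115 in 22Rv1 (20.2% higher, 20.7% lower). In the list of 21 other glycolysis and gluconeogenesis enzymes, 13 were tested in C4-2. With CC-115 5 rose and 4 fell (median 0.34, against 0.03 for all genes). ENO3, the muscle enolase, rose by 0.94, PFKFB1 by 0.76 and PGM1, a phosphoglucomutase, by 0.43. TIGAR, a phosphatase that lowers the activator of phosphofructokinase, fell by 1.76 and BPGM, which makes bisphosphoglycerate, by 1.06 on the log2 scale. PGAM5, which fell by 1.07, is in the list by its name but is a mitochondrial protein phosphatase. With CC-223 1 rose (PFKFB1, 1.10) and 4 fell, led by TIGAR (-0.87), PGAM5 (-0.80) and PCK2 (-0.73). In 22Rv1 3 of 12 rose, among them ENO3 (1.28) and PGM1 (0.65), and 5 fell, led by TIGAR (-3.11), BPGM (-1.08) and PGM2 (-1.05).

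Of 11 other transporters of glucose, lactate or pyruvate, 4 rose and 4 fell with CC-115 in C4-2, where 53.6% of all genes were called. The glucose transporter SLC2A12 rose by 2.00, from 9.57 ± 0.775 to 38.2 ± 1.61 CPM (SD, n = 3), and SLC2A4 (0.37) and MPC1 (0.34) also rose. The lactate transporters SLC16A1 (-1.29) and SLC16A7 (-1.25) and the pyruvate carrier subunit MPC2 (-0.63) fell. With CC-223 2 rose (SLC2A12 1.59, SLC2A4 0.42) and 3 fell (SLC16A7 -0.70, MPC1 -0.58, SLC16A1 -0.43). In 22Rv1 3 of 10 rose (SLC2A4 1.55, SLC2A12 0.95, SLC2A10 0.57) and 4 fell, led by SLC16A1 (-1.89), MPC2 (-1.77) and SLC16A7 (-1.28).

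Of 10 genes of pyruvate dehydrogenase and its regulators, 9 were tested in C4-2, and with CC-115 7 fell and 1 rose, against 26% and 27.6% of all genes. The subunits DLAT (-1.145) and DLD (-1.144) and the phosphatase PDP2 (-0.92) fell most, whereas PDPR, a regulatory subunit of the phosphatase, rose by 1.64. With CC-223 3 fell (DLAT -0.71, PDHA1 -0.47, DLD -0.42) and none rose. In 22Rv1 6 of 10 fell, led by DLAT (-1.57), DLD (-1.18) and PDHX (-0.85), and 3 rose (PDK4 2.01, PDPR 1.03, PDK2 0.81). PDK4, a kinase of the same family as PDK1 and PDK3, had 9.72 ± 1.43 CPM in Control and 39.2 ± 6.17 with CC-115 (SD, n = 3 and 2).

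Of the 8 pentose phosphate genes, 2 rose and 3 fell with CC-115, 2 rose and 2 fell with CC-223, and 4 rose and 2 fell in 22Rv1, against 53.6, 23.9 and 40.9% of all genes called. PGLS, the lactonase, rose by 0.86 and H6PD by 0.50 with CC-115 in C4-2, and RPIA (-0.67), TALDO1 (-0.36) and RPE (-0.31) fell. With CC-223 H6PD (0.61) and PGLS (0.42) rose, and TKT, a transketolase, (-0.41) and RPE (-0.34) fell. In 22Rv1 PGLS (1.05), TKT (0.98) and H6PD (0.75) led the rises, and RPE (-0.86) and RPIA (-0.78) fell.

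Of 14 regulators of the HIF pathway, 13 were tested in C4-2. The same shares of all genes apply. With CC-115 2 rose (ARNT2, a HIF partner, 0.95; CITED2, a HIF inhibitor, 0.33) and 3 fell, among them CUL2 (-0.99) and ELOC (-0.94), subunits of the ligase that degrades HIF. With CC-223 ARNT2 (1.24) and CITED2 (0.45) rose and 2 fell (ELOC -0.46, CUL2 -0.39). In 22Rv1 2 of 14 rose (HIF3A, 2.45; CITED2, 0.52) and 3 fell (ELOC -1.29, CUL2 -1.10, RBX1 -0.76).

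Of 40 other HIF target genes, 38 were tested in each line. In C4-2 10 rose and 15 fell with CC-115 (median -0.25, against 0.03) and 8 rose and 13 fell with CC-223 (-0.03, against 0.07). In 22Rv1 10 rose and 12 fell (0.07, against -0.02). Of all genes 53.6, 23.9 and 40.9% were called in these comparisons. With CC-115 in C4-2 RORA, a nuclear receptor, rose by 1.99, WSB1 by 1.24 and NDRG1, a stress-response gene, by 1.12. DDIT4, an inhibitor of TOR signalling, had 43.55 ± 3.22 CPM in Ctrl and 4.85 ± 0.119 with CC-115 (log2 -3.17, SD, n = 3), and TFRC, the transferrin receptor, (-3.003) and PLOD2 (-2.65) also fell. With CC-223 NDRG1 (1.87), RORA (0.59) and TGFA (0.50) led the rises, and DDIT4 (-1.44), STC2 (-1.05) and BHLHE40 (-1.04) the falls. In 22Rv1 ANGPTL4 (1.02), CCNG2 (0.91) and CA12 (0.76) led the rises, and TFRC (-2.89), PLOD2 (-1.91) and DDIT4 (-1.72) the falls.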

How the data were processed

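Gene counts were deposited for both lines, made by the authors with STAR 2.5.2a on hg19 and featureCounts 1.5.0-p3, per the submitters' processing notes, which also name DESeq2 1.14.1. Libraries were made with a TruSeq Stranded Total RNA Gold kit, per the labels' protocols. Which annotation release was used, whether strand was read and how multi-mapping reads were treated is not stated in the labels. The 32 genes were matched by their Ensembl identifiers. Each line's table was fitted whole with edgeR 4.0.16 (limma 3.58.1, R 4.3.3): filterByExpr, TMM scaling, and the quasi-likelihood test with robust dispersion over all groups of the line. The Benjamini-Hochberg adjustment ran over all tested genes of a fit, with 0.05 as the threshold for a call. The difference between lines was fitted on the C4-2 Ctrl and CC-115 libraries together with 22Rv1, with line, treatment and their product. Intervals are 95% and cover the spread between libraries. Levels are TMM-scaled CPM. Named genes are all members, and for the other lists up to 3 called genes in each direction with the largest change among genes whose mean log2 CPM was 0 or above; 1 such gene is not reported here. The members and lists were chosen with earlier results of these data known. Alternatives were RLE scaling, no filter, a stricter filter (CPM of at least 1 in at least 3 libraries), DESeq2 1.42.0, the replicate number as a block, removal of small and mitochondrial RNA, only the groups compared, leaving out the 2 libraries that stand apart, and leaving out each library in turn. The fitting script was tested on simulated counts. Promoters came from RefSeq (GRCh38.p14), whose coordinates are not those of hg19.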

Additional observations from a re-analysis of the deposited data

Results flagged for a closer look

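The CC-115 effect on EGLN3 differed with and without Enza by 1.02 on the log2 scale (interaction term, edgeR), being smaller with Enza.

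The CC-115 effect differed between 22Rv1 and C4-2 by the test of the difference for 19 members. On the log2 scale (22Rv1 minus C4-2), the transporters differed by 1.69 (SLC16A3) and 0.42 (SLC2A1). The upper glycolytic enzymes differed by 0.38 (HK1), 0.75 (GPI), 0.46 (PFKM), 1.43 (PFKP), 0.815 (ALDOA) and 0.90 (ALDOC). The lower enzymes differed by 0.97 (TPI1), 1.05 (GAPDH), 0.43 (PGAM1), 0.78 (ENO1) and 0.87 (PKM). The regulators differed by 0.39 (PFKFB3), 0.50 (PFKFB4) and 0.82 (PDK3). Among hypoxia genes the differences were 1.59 (EGLN3), 0.78 (ANKRD37) and -0.46 (VEGFA). The lines were deposited as separate count tables, and 22Rv1 had 2 treated libraries.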

How the results depend on the processing

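Some counts of members called moved by over 1.5 times. The share of all genes called also changes with the setting. It is not set beside the counts below, so they say nothing about these genes in particular. NU7441 against Ctrl gave 6 with the stricter filter, 5 by DESeq2, 10 with only the groups compared and 13 without the 2 libraries that stand apart. NU7441 against CC-223 gave 12, 24 and 25 with the stricter filter, only the groups compared and without the 2 libraries. CC-223 against Ctrl gave 24 with only the groups compared. Enza against Ctrl gave 2 with only the groups compared and 18 without the 2 libraries. NU7441+Enza against Enza gave 1 with no filter, 3 by DESeq2 and 3 without the 2 libraries. CC-223+Enza against Enza gave 12 with only the groups compared. The CC-115 interaction gave 2 with the stricter filter and 5 without the 2 libraries. The cause was not tested. Leaving out 1 library gave 1 to 4 for NU7441, 0 to 6 for NU7441+Enza and 1 to 3 for the CC-115 interaction; every other comparison stayed within 1.5 times its count, at 21 to 22 for CC-115 in C4-2 and 11 to 15 in 22Rv1. Where 1 22Rv1 CC-115 library was left out, the other was assumed to vary like the rest. Signs turned in 3 values without the 2 libraries: SLC16A3 with Enza (-0.255), PFKL with CC-115+Enza (0.028) and PFKM with CC-223+Enza (0.168).

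Replicate numbers are shared by the groups but did not pair the libraries (median correlation -0.012 over 84 same-numbered pairs, 4 of 24 libraries nearest to their own number). With the replicate number as a block, 22 members were called for CC-115, 14 for CC-223, 7 for Enza and 3 for NU7441 in C4-2, and 14 in 22Rv1, where SLC16A3 was not called (-0.476, adjusted p = 0.143). CA9 in both lines and ADM in C4-2 had too few counts to be compared at this depth.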
